A study of Mus musculus with 8 samples.

Results

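The Agilent arrays of this series carried a class of 16251 probes designed to long intergenic noncoding RNAs (lincRNAs), 29.186% of the 55681 non-control probes. Members were chosen by their measured signal: a lincRNA probe is called a member here where the scanner software flagged both arrays of 1 or more of the 4 groups as well above background for it. By that rule 10334 of the 16251 probes (63.59%) were members, against 29601 of the 39430 other probes (75.072%). The members carried 4052 of the 4622 lincRNA names of the class, and most names are stretches of the mouse genome (build mm9) with a strand. The signal itself chose the members, so the share that was detected is a description, and a member seen only in the group where it was bright had to differ from the others.

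The samples were bone marrow-derived macrophages from mice labelled female and 6 to 8 weeks old, grown for 6 days in medium conditioned by L929 cells, a fibroblast line whose medium supplies CSF1, on which macrophages depend. Cullin 3 (Cul3) was intact (wild type, WT) or knocked out (KO), and the cells were left untreated or given bacterial lipopolysaccharide (LPS) for 6 hours. The groups were thus WT untreated, WT with LPS, KO untreated and KO with LPS, each with 2 samples on 1 array each. The labels used here do not give the Cre line, the allele, and do not say that the 2 samples of a group are from different mice or cultures. The p-values therefore cover only the spread among the samples at hand, which may be technical.

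LincRNAs are transcripts longer than those of the classical small RNAs that lie between protein-coding genes and have no recognised reading frame. Some are spliced and polyadenylated messages with functions of their own, some are hosts of microRNAs, and others are transcribed from enhancers or from the ends of neighbouring genes. LPS is sensed by Toll-like receptor 4, which switches on NF-kB and interferon-dependent transcription in macrophages, and many noncoding transcripts near inflammatory genes are known to be induced with them. Cul3 is the scaffold of ubiquitin ligases whose adaptors include KEAP1, the adaptor that keeps the transcription factor NRF2 low.

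All members were probes of 60 bases. The sequences below are those of the probes on which the LPS and genotype results turn, read from the array files 5′ to 3′. The first set shows pairs of probes that read the same bases of mm9 from opposite strands, with the shared stretch in capitals, because they show how far the strands of a locus moved together. The first pair (50 shared bases) lies next to Mrpl39 at chr16:84706065-84706124 (plus strand) and chr16:84706075-84706134 (minus strand). The second (54 shared bases) lies near Ptgs2 at chr1:152008240-152008299 (plus) and chr1:152008234-152008293 (minus). The third (50 shared bases) lies near Galnt7 at chr8:60133564-60133623 (plus) and chr8:60133554-60133613 (minus).
A_30_P01033227: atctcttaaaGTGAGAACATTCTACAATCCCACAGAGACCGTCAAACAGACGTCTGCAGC
A_30_P01020928: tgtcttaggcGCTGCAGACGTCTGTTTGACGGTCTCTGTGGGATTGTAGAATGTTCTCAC
A_30_P01026117: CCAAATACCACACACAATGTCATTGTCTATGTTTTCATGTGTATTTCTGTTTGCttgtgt
A_30_P01032166: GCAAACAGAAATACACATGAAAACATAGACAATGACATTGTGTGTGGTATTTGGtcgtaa
A_30_P01030568: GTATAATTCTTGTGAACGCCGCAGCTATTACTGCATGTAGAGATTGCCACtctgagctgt
A_30_P01024500: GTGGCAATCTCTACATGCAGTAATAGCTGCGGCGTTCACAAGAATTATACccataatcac

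The second set holds the single probes of large changes, with no letters in capitals. The rises with LPS are read by A_30_P01032196 (chr16:84708738-84708797, plus strand), A_30_P01029641 (chr5:31883970-31884029, plus) and A_30_P01019902 (chr19:53537904-53537963, plus). The falls with LPS are read by A_30_P01021048 (chr17:71185320-71185379, plus) and A_30_P01018328 (chr11:112905529-112905588, minus). The differences between genotypes are read by A_30_P01020518 (chr9:78116774-78116833, plus), A_30_P01018135 (chr17:12944580-12944639, plus) and A_30_P01029922 (chr4:16144459-16144518, plus).
A_30_P01032196: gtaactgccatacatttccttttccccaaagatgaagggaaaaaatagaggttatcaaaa
A_30_P01029641: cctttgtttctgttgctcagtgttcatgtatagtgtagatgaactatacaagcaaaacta
A_30_P01019902: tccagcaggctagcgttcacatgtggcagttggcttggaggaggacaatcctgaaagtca
A_30_P01021048: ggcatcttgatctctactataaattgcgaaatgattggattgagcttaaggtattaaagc
A_30_P01018328: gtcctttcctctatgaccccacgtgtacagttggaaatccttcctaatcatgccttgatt
A_30_P01020518: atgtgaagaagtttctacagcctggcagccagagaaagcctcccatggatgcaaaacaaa
A_30_P01018135: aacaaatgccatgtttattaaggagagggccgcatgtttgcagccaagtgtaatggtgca
A_30_P01029922: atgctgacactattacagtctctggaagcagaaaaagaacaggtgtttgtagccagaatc

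As a class, member probes had a median GC content of 45%, against 41.667% in the 5917 lincRNA probes that were not members and 43.333% in the other detected probes. The letters AATAAA, the core of the polyadenylation signal, stood in 3.7836% of the member probes and in 13.223% of the other detected probes (searched on the sense strand; 2.6321% and 4.0505% on the other strand). The letters ATTTA, the core of AU-rich elements, stood in 5.8641% of the members and 7.6247% of the other detected probes on the sense strand (6.8125% and 10.503% on the other). In the lincRNA probes that were not members the sense-strand shares were 4.1575% for AATAAA and 8.9234% for ATTTA. The motifs can overlap each other, and a match describes the probe only. Members just inside the detection rule had a median processed signal of 18.187 and lincRNA probes just outside it one of 11.464.

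The labels were checked first. The sex label did not match the data: the Y-linked Ddx3y gave a signal of 3295 to 8099 and Eif2s3y one of 10880 to 19990, both well above background on all 8 arrays, while neither probe of Xist exceeded a signal of 87.6. Of the 5 lincRNA probes named XIST, 2 were members, and of those named TSIX none of 5 was. All 8 of 8 macrophage markers were well above background on every array. So were 10 of 12 neutrophil, 5 of 6 dendritic cell and 6 of 6 stromal and endothelial markers. The same held for 2 of 6 lymphocyte and 1 of 4 measured erythroid and megakaryocyte markers. Detection alone therefore does not identify the cells. The Cul3 probe fell by 0.45 ± 0.13 (SE) on the log2 scale in untreated KO cells, which did not pass the test (adjusted p = 0.141), and by 0.58 ± 0.13 with LPS (adjusted p = 0.0354). Whether that probe lies in the deleted part was not given in the sources used here, so it checks the genotype labels only if it does. The 8 arrays shared 1 slide, and each genotype filled 1 row of it, so genotype and slide row cannot be told apart. Untreated samples filled slide columns 1 and 2 and LPS-treated samples columns 3 and 4, so treatment and these column pairs cannot be told apart either. The 75th percentile of the processed signal was 678 to 1557, and 47.3% to 66.3% of the lincRNA spots were well above background, the lowest share on an LPS-treated WT array. Replicates correlated at 0.970 to 0.980 over the members, which are not independent points.

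Markers of other cell types moved with the groups and are given here once for the genotype results below. The summed level of 12 neutrophil markers, in multiples of each array's 75th percentile, was 81.05 to 81.18 in WT untreated, 119 to 121 in KO untreated, 165 to 170 in WT with LPS and 217 to 242 in KO with LPS. Of these 12 genes, 7 were higher in untreated KO cells, and with LPS 8 were higher and 1 was lower. The summed level of the 6 dendritic cell markers was 1.88 to 2.03 in WT untreated, 2.06 to 2.47 in KO untreated, 16.4 to 20.7 in WT with LPS and 14.9 to 16.9 in KO with LPS. Lymphocyte markers (6 genes) summed to 2.01 to 2.06, 1.73 to 1.86, 0.839 to 1.07 and 0.690 to 0.929 in the same order, and 4 measured erythroid and megakaryocyte markers to 65.7 to 69.7, 92.3 to 96.8, 93.3 to 113 and 157 to 167. Stromal and endothelial markers (6 genes) summed to 1.41 to 1.49, 1.34 to 1.56, 4.38 to 5.12 and 8.42 to 8.68. Their part in the lincRNA results was not tested, and in these bulk samples fewer cells of a type and less RNA per cell cannot be told apart.

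Levels below are log2 processed signal minus the log2 75th percentile of the array, so that 0 is a probe at that percentile, and each probe's levels are compared only with its own. Differences are limma estimates on that log2 scale with standard errors (SE), from 1 fit of 39912 probes. "Called" means an adjusted p under 0.05 over all of these probes.

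LPS changed more lincRNA probes than genotype did, and in both genotypes more rose than fell under this scaling. In WT cells 3341 of 10330 fitted members were higher with LPS and 1271 were lower, where 54.6% of all probes tested were called (33.2% higher and 21.4% lower). In KO cells 2135 were higher and 1118 were lower, where 43.8% of all probes were called (23.3% higher and 20.5% lower). The median log2 difference of the members was 0.42 in WT and 0.24 in KO, against 0.29 and 0.12 over all probes. The excess of rises depends on the scaling: with each array centred on its median, which moves the median of all probes in WT to -0.09, 1904 members were higher and 1914 lower in WT, and 1453 higher and 1518 lower in KO. With quantile normalization the split was 2171 to 1800 in WT and 1690 to 1428 in KO, and in the authors' deposited values, which are not scaled between arrays, 350 to 1034 and 330 to 984 of 3027 members. None of the probes named by rule changed direction under any of these scalings that was run for it.

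**Figure D1:**
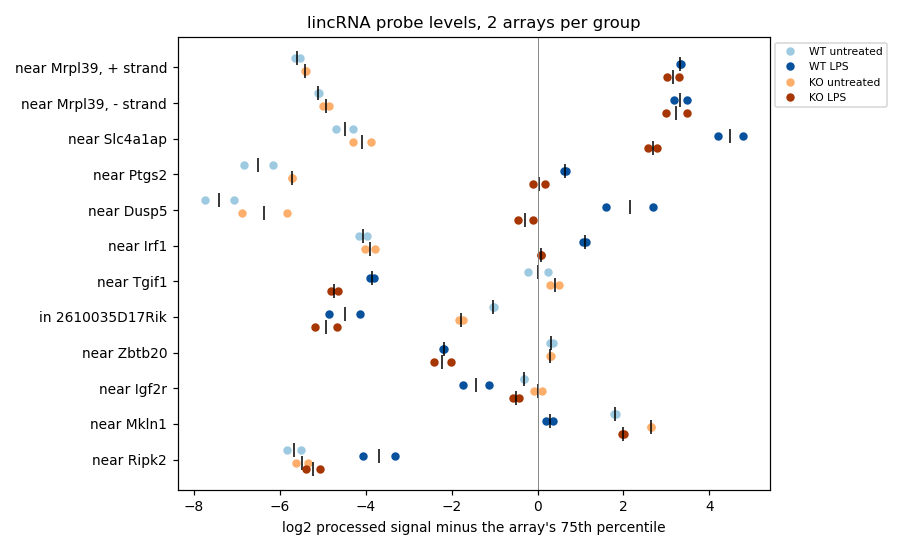
Level of 12 lincRNA probes on each array (x axis, log2 processed signal minus the array's 75th percentile), named by the nearest protein-coding probe; points are the 2 arrays of a group and black ticks the group means. The 6 upper probes are higher with LPS and the next 3 lower in both genotypes, and the 3 lowest differ between genotypes with LPS.

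A stretch beside Mrpl39 on chromosome 16 held 13 members, 12 of them called higher with LPS in WT. In RefSeq's gene order (GRCm38.p6) the genes next to Mrpl39 on that side are Mir155 and Mir155hg, the microRNA and host transcript known to be induced by Toll-like receptors in macrophages. The level of A_30_P01032196 was -5.65 and -5.54 in WT untreated, 3.32 and 3.34 in WT with LPS, -5.40 and -5.41 in KO untreated and 3.30 and 3.01 in KO with LPS. The rise was 8.92 ± 0.15 in WT cells (adjusted p = 1.91e-06) and 8.56 ± 0.15 in KO cells (adjusted p = 4.39e-06), with no overlap between treated and untreated arrays. With LPS the genotypes differed by -0.17 ± 0.15 (adjusted p = 0.482).

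Both strands of this stretch responded. On the minus strand A_30_P01017643 went from -5.10 and -5.12 in WT untreated to 3.48 and 3.17 with LPS, and from -4.87 and -5.00 to 3.48 and 2.99 in KO. All 7 plus-strand members were higher with LPS in WT and in KO, and 5 of the 6 minus-strand members were. The exception, A_30_P01024115, differed by 0.02 in WT (adjusted p = 0.950) and was called lower in KO (-0.88), and it lies between members that rose. In the pair of probes with 50 shared bases, the plus-strand probe rose at least 44.7-fold in WT (levels -8.62 and -7.02 untreated, not well above background, and -1.11 and -1.33 with LPS). Its minus-strand partner rose by 7.10 ± 0.48, from -5.39 and -5.12 to 2.66 and 1.02. Mrpl39, a mitochondrial ribosomal protein gene, rose by 0.58 ± 0.17 in WT (adjusted p = 0.0266) and differed by 0.09 ± 0.17 in KO.

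**Figure D2:**
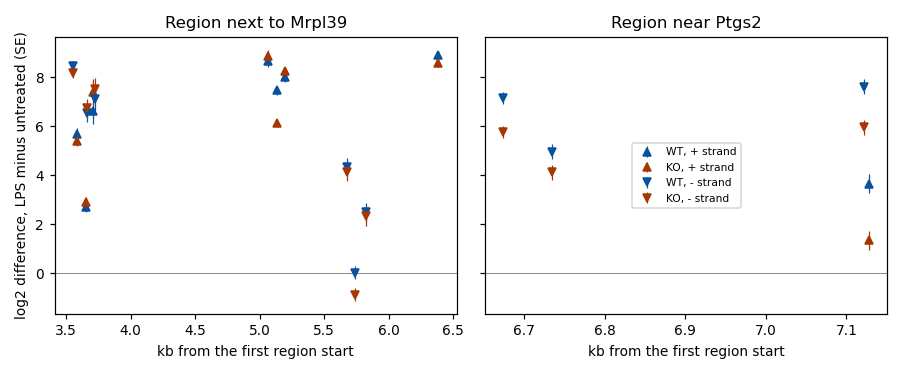
Log2 difference between LPS and untreated (y axis, with SE) against position in kb from the first region start, for the 13 members next to Mrpl39 and the 4 near Ptgs2; blue is WT and brown is KO, upward triangles are plus-strand and downward triangles minus-strand probes. Probes of both strands rise next to Mrpl39, with 1 near 0 in WT, and near Ptgs2 so do the 3 minus-strand probes and the single plus-strand member, whose untreated WT arrays were not well above background.

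A similar arrangement lay near Ptgs2, which encodes the inducible cyclooxygenase of prostaglandin synthesis and itself rose by 12.07 ± 0.33 in WT and 10.09 ± 0.33 in KO. The 3 minus-strand members of chr1:152001112-152012796, about 53.0 kb away, were all called higher in both genotypes. A_30_P01020139 was at -6.84 and -6.17 in WT untreated, 0.67 and 0.60 in WT with LPS, -5.72 and -5.73 in KO untreated and 0.17 and -0.10 in KO with LPS, a rise of 7.14 ± 0.24 in WT and 5.76 ± 0.24 in KO. Here the treated arrays of both genotypes lie far above the untreated ones. In the pair with 54 shared bases, the minus-strand probe A_30_P01032166 rose at least 39.5-fold in WT and the plus-strand probe A_30_P01026117 at least 3.20-fold. Both strands of these bases were thus brighter with LPS, and lower bounds cannot rank them.

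Several large rises stood alone or on part of their region's probes. A_30_P01029641, the only probe of chr5:31883451-31884082, went from -4.69 and -4.30 to 4.78 and 4.19 in WT and from -3.87 and -4.29 to 2.78 and 2.57 in KO. That is a rise of 8.98 ± 0.27 in WT and 6.76 ± 0.27 in KO, while Slc4a1ap, 27.6 kb away, did not pass the test in WT (0.27 ± 0.16, adjusted p = 0.186). Of the 9 members of chr19:53517903-53540753 (plus strand), 6 were higher in WT and 5 in KO. The nearest coding probe of its most changed member belongs to Dusp5, which encodes a nuclear phosphatase of the MAP kinase ERK. That member, A_30_P01019902, was at -7.08 and -7.75 in WT untreated, 2.70 and 1.60 in WT with LPS, -6.89 and -5.83 in KO untreated and -0.46 and -0.11 in KO with LPS. It rose at least 461-fold in WT and by 6.08 ± 0.49 in KO, and Dusp5 rose by 3.48 ± 0.25 in WT and 2.62 ± 0.25 in KO. A_30_P01018532 at chr10:69669025-69686275 rose by 7.39 ± 0.17 in WT and 6.63 ± 0.17 in KO, but was the only called of 3 members of its name. Likewise 1 of 2 members of chr17:64063362-64066067, A_30_P01029335, rose at least 140-fold in WT, with no protein-coding probe nearer than Fer at 425 kb.

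Other regions responded with every member. The 3 members of chr2:128142035-128142481 (minus strand) rose by 6.31 to 6.42 in WT and 5.39 to 5.68 in KO. Another probe of the array inside that region belongs to Morrbid, a noncoding RNA known to restrain Bcl2l11 (BIM), a pro-apoptotic gene, in myeloid cells. The Morrbid probe itself rose by 6.64 ± 0.19 and 5.67 ± 0.19, and Bcl2l11, 158 kb away, by 1.76 ± 0.16 and 1.46 ± 0.16. The 3 members of chr4:63736566-63744848 near Tnc, the gene of the matrix protein tenascin C, rose by 6.05 to 6.49 in WT and 4.54 to 4.62 in KO. The 5 members of chr17:84470764-84486339 near Zfp36l2 rose by 2.51 to 4.91 in WT and 1.47 to 3.30 in KO. Zfp36l2, which encodes an RNA-binding protein that promotes mRNA decay, fell by 2.90 ± 0.15 and 3.42 ± 0.15, so the region and its nearest coding gene moved in opposite directions.

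Members near genes of the LPS and interferon response were called higher more often than lower. This list of inflammatory and interferon genes had 162 members within 100 kb of 26 of its genes. In WT 92 were called higher and 4 lower with LPS (59.26% in all), and in KO 70 and 3 (45.06%). Only these shares in all, with both directions together, are close to those over all probes. The split leaned further to higher calls than over all probes. The list was chosen with earlier results of these data known, and its split was not run under the other scalings, so it is a description. In WT 54.6% of all probes were called (33.2% higher and 21.4% lower), and in KO 43.8% (23.3% higher and 20.5% lower). The median log2 difference of the 162 was 0.89 in WT and 0.65 in KO, against 0.42 and 0.24 over all mapped members. Next to Irf1, an interferon-induced transcription factor that rose by 3.90 ± 0.18 in WT, A_30_P01023399 went from 0.26 and 0.23 to 5.23 and 5.87 in WT and from 0.47 and 0.72 to 5.61 and 5.26 in KO. All 9 members next to Herc6, an interferon-induced ubiquitin ligase, rose in both genotypes, by 3.09 to 7.96 in WT. For 5 of these 9 a Herc6 probe of the same strand lies inside the lincRNA region, so the coding transcript and a separate noncoding one cannot be told apart there. The same holds for 446 members in all that have a same-strand coding probe inside their region. Of 10 members near Ifi204, an interferon-inducible gene of the p200 family, 9 rose in both genotypes, and of 15 near Socs3, a feedback inhibitor of cytokine signalling, 11 rose in WT. By contrast none of 3 near Atf3 and none of 2 near Dusp1 was called. The annotated noncoding RNAs of another list, measured with probes outside the class, were split: of 32 tested, 10 rose and 11 fell in WT, and 3 rose and 10 fell in KO.

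The falls with LPS were fewer than the rises under the main scaling, and not with median centring or in the deposited values. All 3 members of chr17:71183978-71185384 (plus strand) fell in both genotypes, with log2 differences of -4.08 to -3.70 in WT and -5.13 to -4.79 in KO. A_30_P01021048 was at 0.24 and -0.22 in WT untreated, -3.91 and -3.82 in WT with LPS, 0.30 and 0.50 in KO untreated and -4.64 and -4.82 in KO with LPS. The treated arrays lie far below every untreated array, and those of KO below those of WT. Tgif1, which encodes a homeodomain repressor, lies 8.25 kb away on the other strand and rose by 1.13 ± 0.14 in WT and 0.80 ± 0.14 in KO.

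Other falls went with a neighbouring probe outside the class. The 3 members of chr11:112905201-113062945 (minus strand) differed by -5.62 to -3.47 in WT and -4.82 to -3.14 in KO. A probe of the noncoding gene 2610035D17Rik inside that region fell by 2.86 ± 0.19 and 2.31 ± 0.19. It overlaps A_30_P01018328 on the same strand, so their values are not independent. For A_30_P01018328 the levels were -1.02 and -1.04 in WT untreated, -4.13 and -4.86 in WT with LPS, -1.73 and -1.83 in KO untreated and -4.68 and -5.17 in KO with LPS. Of 10 members near Zbtb20, a zinc finger repressor that fell by 2.79 ± 0.13 in WT, 9 were called lower in each genotype. The member A_30_P01019621 was at 0.36 and 0.28 in WT untreated, -2.20 and -2.18 with LPS, 0.28 and 0.31 in KO untreated and -2.01 and -2.42 with LPS, so both genotypes fell by 2.51 ± 0.17. Near Ptgs1, the constitutive cyclooxygenase, 3 of 3 members fell in both genotypes, and Ptgs1 itself fell by 3.05 ± 0.15 and 3.29 ± 0.15.

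Elsewhere the neighbour was not called. The 3 members of chr7:16633756-16634410 near Napa, a gene of vesicle fusion, differed by -4.17 to -3.65 in WT and -3.55 to -3.44 in KO, while Napa differed by -0.07 ± 0.14 and -0.28 ± 0.14 (adjusted p = 0.685 and 0.151).

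Some transcripts of the class have names of their own. The regions above were chosen for large changes, so their sizes are not compared with those of the named transcripts. The 5 probes of NEAT1, the noncoding scaffold of paraspeckles, differed by -1.03 to -0.96 in WT and by -0.78 to -0.71 in KO, and all were called lower in both. A_30_P01020135 was at 2.74 and 2.51 in WT untreated, 1.72 and 1.60 in WT with LPS, 2.45 and 2.41 in KO untreated and 1.78 and 1.62 in KO with LPS. The Neat1 gene probe outside the class gave -1.04 ± 0.14 and -0.77 ± 0.14. Of the 5 TUG1 probes none was called in WT (0.23 to 0.40) and 3 were higher in KO (0.48 to 0.75). Their unscaled signals in KO moved little: A_30_P01033104 gave 3760 and 2898 untreated and 3787 and 3741 with LPS. Most of the TUG1 rise in KO thus comes from the subtracted 75th percentile, which was lower on the LPS-treated KO arrays. For NEAT2, also known as Malat1, 1 of 3 probes was lower in KO and none was called in WT. H19, an imprinted transcript, had 4 members, 2 of them called higher in WT, and the single member of HOTAIR was not called in any comparison. Both members of lincP21, which lies beside the cell cycle inhibitor gene Cdkn1a, were higher with LPS in WT (0.93 and 0.97), and 1 of them was lower in KO. Both were dim, and their unscaled signals in WT moved little. A_30_P01023928 gave 15.48 and 16.72 untreated and 20.43 and 14.59 with LPS. A_30_P01023403 gave 10.62 and 16.83, then 15.26 and 14.14. Most of these rises thus comes from the subtracted 75th percentile, which was lower on the LPS-treated WT arrays. Apart from A_30_P01025068, the H19 members were also dim, with signals of at most 31.73.

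Before LPS, few lincRNA probes differed between genotypes. In KO against WT untreated, 56 members were higher and 28 lower, 0.813% of those fitted, where 1.94% of all probes were called (1.34% higher and 0.594% lower). The split depends on the scaling, with 43 higher and 30 lower under median centring, 46 and 41 under quantile normalization, 39 and 44 with the percentile over probes detected on all 8 arrays, and 118 and 218 with normexp. The share called was thus below that of the whole array. Of the 68 names that had a called probe and at least 2 members, 60 had only 1 called probe. Leaving out either array of the untreated groups left 8 to 11 calls, and taking the slide column as a block left 8.

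A large difference in both conditions lay near Gsta1, a glutathione S-transferase gene and a known NRF2 target. A_30_P01020518 was at -5.93 and -6.39 in WT untreated, -5.69 and -5.85 in WT with LPS, -1.97 and -1.77 in KO untreated and -0.84 and -1.07 in KO with LPS. It was higher in KO by 4.29 ± 0.20 untreated (adjusted p = 0.000997) and by 4.81 ± 0.20 with LPS (adjusted p = 0.000705). In each condition it was called under all 18 alternatives run for it. The Gsta1 probe, 26.3 kb away, was 1.82 ± 0.41 higher untreated (adjusted p = 0.0904) and at least 12.4-fold higher with LPS. One member of the neighbouring name chr9:78107225-78118850, A_30_P01028766, has exactly the sequence of that Gsta1 probe, so its value and that of Gsta1 are 1 measurement. Closely related Gsta genes can also share a probe, so which of them these probes read is uncertain. Over the list of NRF2 targets, 15 members lay within 100 kb of 2 of its genes, Gsta1 and Srxn1. Of these 1 was higher in KO untreated and 3 with LPS, and none was lower, where 1.94% and 13.5% of all probes were called. All 3 calls with LPS lay near Gsta1.

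Probes seen in 1 group had folds with a lower bound only. The detection rule kept such probes through that group alone. A difference from the other groups was thus built in, and their calls and folds are descriptions. A_30_P01027483 near Mcfd2 was at -4.43 and -3.43 in KO untreated and not well above background elsewhere, at least 6.83-fold above WT untreated. It was the only called of 3 members of its name. A_30_P01021072 near Snrpn was well above background in KO with LPS only, at least 11.02-fold above WT with LPS, and a value from 1 of those 2 arrays was left out as an outlier. Other genotype differences before LPS were smaller or rested on 1 probe. In a cluster on chromosome 17, A_30_P01024415 was at -3.81 and -3.83 in WT untreated and -2.26 and -2.13 in KO untreated (1.63 ± 0.14, adjusted p = 0.00634), and A_30_P01028116 differed by 1.46 ± 0.19. The coding probes there, Gm3448 and 9030025P20Rik, were also higher in KO, by 1.32 ± 0.15 and 1.47 ± 0.16. A_30_P01020131 near Safb2 was at least 10.1-fold higher in KO untreated and 3.27 ± 0.49 higher with LPS, but was the only one of its 4 members called for genotype. The 3 members of chr6:31170350-31287353, 157 kb from Mkln1, gave 0.74 to 0.90, 2 of them called. A_30_P01031155 of that region was at 1.83 and 1.79 in WT untreated and 2.65 and 2.64 in KO untreated.

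With LPS more members differed between genotypes. Of 10330 members, 299 were higher in KO and 543 lower, 8.15%, where 13.5% of all probes were called (5.55% higher and 7.96% lower). With median centring the split was 362 to 331 and with quantile normalization 423 to 422, so the excess of lower calls is not kept under these scalings. The median log2 difference was -0.16 over members and -0.12 over all probes. Without the second KO array with LPS, on which 974 spots carried an outlier flag against 180 to 325 on the others, 181 members were called, and with the slide column as a block 91.

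Among members lower in KO with LPS, several belonged to regions that LPS induced in both genotypes. In chr7:111530578-111539097 all 3 members were lower in KO (-2.26 to -2.01). This region overlaps Trim30c, a member of the interferon-responsive TRIM30 family, and 1 of its probes, A_30_P01027922, has the sequence of the Trim30c probe. A_30_P01033671 was at -1.34 and -0.96 in WT untreated, 5.66 and 5.51 in WT with LPS, -1.17 and -1.20 in KO untreated and 3.61 and 3.53 in KO with LPS. All 3 members near Tnc were lower in KO with LPS (-1.81 to -1.69), as were all 5 near Zfp36l2 (-1.84 to -1.46), all 5 of chr1:175705225-175717250 near Ifi204 (-1.04 to -0.61) and all 3 of the Morrbid region (-0.99 to -0.86). Of the 162 members near LPS and interferon genes, 19 were lower in KO and 2 higher. Only the share in all, 12.96%, is close to the 13.5% called over all probes (5.55% higher and 7.96% lower). The split leaned further to lower calls, and was not run under the other scalings. The median log2 difference of the 162 was -0.36, against -0.16 over all mapped members. Of the 30 coding probes that the 162 neighbour, 14 were lower and none higher.

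Near Ripk2, which encodes a kinase of NOD receptor signalling, 3 of 7 members were called lower in KO with LPS and none higher. These 3 (-1.54 to -1.17) make up the region chr4:16144314-16144967, about 79.2 kb from Ripk2. All 7 lie 34.7 to 79.3 kb away, and their differences reach up to 0.18. Ripk2 itself differed by -1.84 ± 0.18. A_30_P01029922 was at -5.51 and -5.84 in WT untreated, -4.06 and -3.31 in WT with LPS, -5.35 and -5.62 in KO untreated and -5.07 and -5.39 in KO with LPS. It rose in WT (1.99 ± 0.28) and did not pass the test in KO (0.25 ± 0.28, adjusted p = 0.505), but the difference between these responses did not pass either (-1.74 ± 0.40, adjusted p = 0.0789). All 7 members of chr1:141070245-141076841 near Dennd1b were lower in KO with LPS (-1.13 to -0.95), whereas the nearest Dennd1b probe was not called (-0.35 ± 0.22, adjusted p = 0.324).

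Among members higher in KO with LPS, several belonged to regions that LPS lowered in WT. The 3 members near Mkln1 were 1.71 to 1.77 higher in KO. At A_30_P01031155 the level fell with LPS from 1.83 and 1.79 to 0.36 and 0.20 in WT, and from 2.65 and 2.64 to 2.01 and 1.97 in KO, with no overlap of the 4 groups. All 5 members of chr6:54591416-54597566 were higher in KO (1.13 to 1.35), as was the Plekha8 probe inside it (1.23 ± 0.13). All 3 members near Ubald1 (1.22 to 1.36), all 3 near Guca2b (1.30 to 1.89) and 8 of 10 plus-strand members near Zfp652 (0.53 to 1.52 over all 10) were higher too.

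The 5 members of chr17:12941161-12944859, 69.3 kb from Igf2r, were 0.81 to 1.14 higher in KO with LPS. Airn, the imprinted noncoding RNA that is transcribed antisense to Igf2r, differed by 1.00 ± 0.23 on its own probe. All 5 were lower with LPS in WT (-1.33 to -1.12) and 3 in KO. A_30_P01018135 was at -0.32 and -0.32 in WT untreated, -1.13 and -1.75 in WT with LPS, 0.11 and -0.08 in KO untreated and -0.43 and -0.58 in KO with LPS, and its genotype call with LPS has an adjusted p of 0.0419.

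Of the 32 annotated noncoding RNAs outside the class, 1 was higher in KO untreated, and with LPS 5 were higher and 3 lower. The one called untreated, named here after its value was seen, was Gt(ROSA)26Sor, the transcript of a locus widely used for inserting transgenes. Its level was -5.07 and -5.46 in WT untreated, -4.33 and -3.22 in WT with LPS, 1.35 and 1.48 in KO untreated and 1.73 and 1.49 in KO with LPS. The KO arrays lie far above all WT arrays, by 6.68 ± 0.36 untreated (adjusted p = 0.00137) and 5.38 ± 0.36 with LPS (adjusted p = 0.00162). Whether the KO or WT cells carry an insertion at this locus is not given in the sources used here.

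The difference between the 2 LPS responses was tested as a contrast of its own. It was called for 111 members, 25 with a more positive and 86 with a more negative response in KO, where 2.54% of all probes were called (0.692% and 1.85%). With median centring 26 were more positive and 24 more negative, and with quantile normalization 46 and 50. No member was called with the replicate or slide column as a block (limma, 1473 and 1328 members at an unadjusted p under 0.05), and leaving out 1 array left 0 to 194 calls. At A_30_P01029641 near Slc4a1ap the response in KO was 2.22 ± 0.38 log2 units less positive, a difference of -2.22 (adjusted p = 0.0445). In 4 regions all 3 members were called with a less positive response: the one overlapping Trim30c (-2.46 to -1.98), the one near Tnc (-1.89 to -1.52), chr1:85304494-85305390 (-2.08 to -1.88) and chr1:175653557-175671940 near Ifi207 (-1.40 to -1.08). None of the 32 annotated noncoding RNAs outside the class had a called difference.

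**Figure D3:**
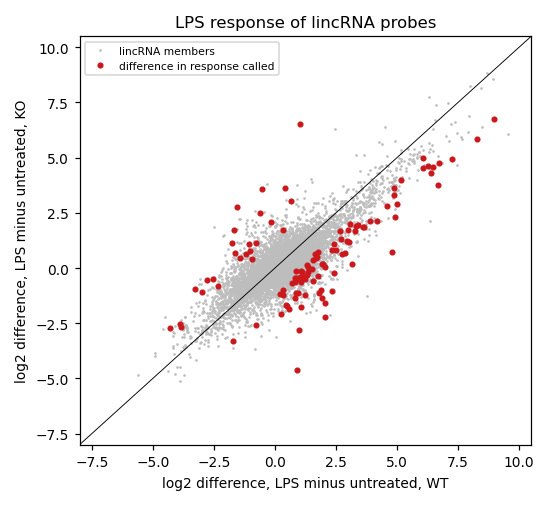
Log2 difference between LPS and untreated in KO (y axis) against WT (x axis) for the fitted members; red points are the 111 members with a called difference in response and the line marks equal responses. Most members follow the line, and 86 of the 111 red points lie below it.

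Probes of 1 name often disagreed. Among 2776 names with at least 2 members, 2109 had a called probe for LPS in WT, and in 1077 of them (51.07%) at least 2 probes were called the same way. In 949 (45.00%) 1 probe was called, and in 174 probes of 1 name were called in both directions. For KO against WT the share with 2 or more calls the same way was 10.29% untreated and 21.25% with LPS, and for the difference in response 13.75%. The standard deviation within names was 0.89 log2 units for LPS in WT, against 1.05 between names, and 0.52 against 0.36 for genotype in untreated cells. The value within names is for single probes and the value between names is for name means, which still hold part of the probe spread. The 2 are therefore not like measures.

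**Figure D4:**
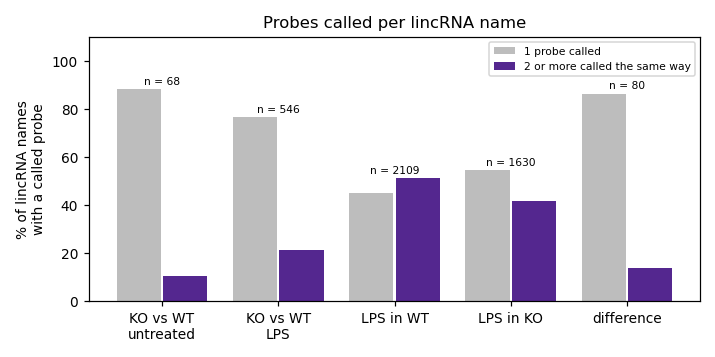
Share of lincRNA names with a called probe (y axis, %) that had 1 called probe (grey) or 2 or more called the same way (purple), by comparison; n is the number of names with a called probe and at least 2 members. For LPS in WT the purple bar reaches 51.07%, and for KO against WT untreated 10.29%.

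Opposite strands of a region went together only in part. In 925 regions with members on both strands, the strand medians correlated at 0.268 for LPS in WT and 0.0078 for genotype in untreated cells, as a description over regions that share arrays and bases. With LPS in WT both strands were higher in 264 of the 838 regions with a call, both lower in 16 and called in opposite directions in 93. Among 765 pairs of members whose probes overlap by at least 30 bases on opposite strands, 112 were called the same way, 37 in opposite ways and 364 on 1 strand. The pair near Galnt7 is of the opposite kind. Its plus-strand probe A_30_P01030568 was at -5.45 and -5.34 in WT untreated and -7.25 and -7.71 with LPS, at least 1.43-fold lower. Its minus-strand probe A_30_P01024500 went from -8.66 and -9.12, not well above background, to -2.90 and -2.67, at least 15.1-fold higher, although 50 of their 60 bases are shared.

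Most members lay within reach of a protein-coding probe. The median distance to the nearest was 31.9 kb, and 8152 members (79.56%) lay within 100 kb. For LPS in WT, the log2 differences of members and their nearest coding probes correlated at 0.520 within 5 kb (1523 members), at 0.662 on the same strand and 0.347 on opposite strands. Beyond that the values were low, 0.141 from 5 to 20 kb, 0.163 from 20 to 100 kb and 0.103 from 100 to 500 kb. Pairs of neighbouring protein-coding genes gave 0.120 within 5 kb and 0.233 from 5 to 20 kb. Within 100 kb the values were 0.231 for members and 0.229 for coding pairs. The sets of pairs are not alike. Coding pairs took a single probe per gene, left out probes of the same gene, and within 5 kb lay mostly on opposite strands. Of the members, 446 had a same-strand coding probe inside their region, where both probes may read the same transcript. The points share arrays, and several members share a neighbour, so these correlations describe the pairs and carry no test.

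**Figure D5:**
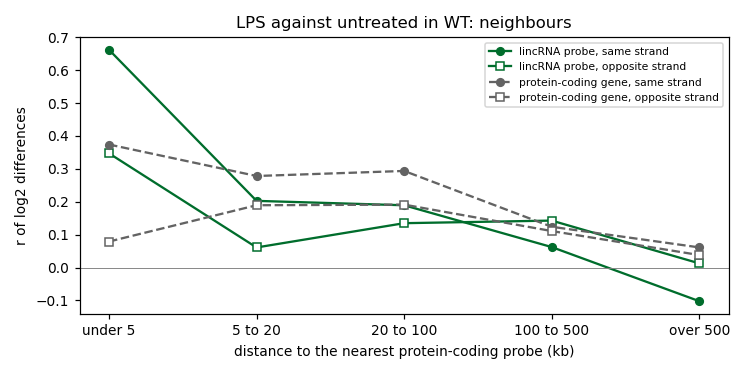
Correlation r of the log2 differences between LPS and untreated in WT (y axis) for pairs of neighbours, by distance in kb (x axis); solid green is a lincRNA member with its nearest protein-coding probe and dashed grey a protein-coding gene with its nearest other, with filled circles for the same strand and open squares for opposite strands. The same-strand lincRNA pairs within 5 kb reach 0.662, and from 5 kb on the lincRNA pairs lie at or below 0.203.

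Members that share their sequence with another probe of the array give a measure of technical agreement. Over 59 such pairs the log2 differences correlated at 0.948 for LPS in WT and 0.837 for KO against WT untreated. For the difference in response the correlation was lower, at 0.66. The median absolute difference between the probes of a pair was 0.17 log2 units for LPS in WT and 0.09 for KO against WT untreated. For the difference in response it was 0.20.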

How the data were processed

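RNA of the 8 samples (0.5 micrograms each, per the labels' protocols) was hybridised to 1-colour Agilent arrays on 1 slide. Per the submitters' processing notes, the authors' spot intensity values come from Agilent Feature Extraction (version 10.7.3.1). Per the file headers the processed intensity was background-corrected within each array and not scaled between arrays, and probe positions are on mm9. The authors' deposited value table holds log2 values and served as an alternative. Groups and replicate numbers came from the sample labels.

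Spots flagged as outliers were dropped, the log2 processed signals of a probe's remaining spots were averaged, and the log2 75th percentile of the array was subtracted. Probes well above background on both arrays of a group were kept, and limma 3.58.1 (R 4.3.3) fitted a mean per group to all 8 arrays with empirical Bayes moderation (4 residual and 2.36 prior degrees of freedom). P-values were adjusted by Benjamini-Hochberg over 39912 probes. The script was tested on simulated data. Of the members, 10330 could be fitted, 4 could not, 246 lacked a value on an array, and 84 had no position. A fold against a group not well above background on either array is a lower bound, from the bright group's mean over, per dim array, the higher of the probe's own signal and the lowest signal well above background.

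Per comparison, the 10 largest called rises and falls were named, 1 probe per name or 10 kb, with up to 8 called members near genes of the LPS and NRF2 lists. The text drops some and adds other probes of the same regions, named lincRNAs and strand pairs, which were chosen after their values were seen. The members and lists were chosen with earlier results of these data known. Neighbours are the nearest protein-coding probes on mm9, and names in RefSeq order come from GRCm38.p6, without coordinates. Same-numbered replicates did not deviate together (r -0.181 to 0.0334 over the 6 pairs of groups), so replicate numbers were not used as pairs. The number of arrays limits the precision. Alternatives were other scalings, normexp with an offset of 50, the deposited values, other filters, 1 probe per name, fewer arrays, blocks, and leaving out each array. Results at 1 locus and for 1 marker are not reported here.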

Additional observations from a re-analysis of the deposited data

Results flagged for a closer look

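For 16 members named by size of change, the response to LPS differed between genotypes by a test of the difference itself (limma, adjusted p 0.0175 to 0.0459, 1 value per probe). Each of them lost its call in 7 or 8 of the 8 fits that left out an array. A_30_P01029641 was called in 3 of 17 alternatives. A more positive response in KO was found at A_30_P01022290 near Xkr5 (3.41, with 1 WT untreated array missing), A_30_P01019496 near Rtl1 (2.39), A_30_P01018582 near Heatr5a (1.53), A_30_P01023638 near Adam39 (1.39) and A_30_P01031853 near Asb5 (1.35). A less positive response was found at A_30_P01032821 near Mcfd2 (-2.44), A_30_P01029641 near Slc4a1ap (-2.22), A_30_P01025035 near Ctnnd1 (-2.10), A_30_P01024650 near C130026I21Rik (-2.06), A_30_P01033671 in Trim30c (-1.98), A_30_P01020315 near Maml2 (-1.80), A_30_P01026610 near Zfp36l2 (-1.79), A_30_P01027120 near Gm2427 (-1.76), A_30_P01032622 near Tmem181a (-1.73), A_30_P01027577 near A530032D15Rik (-1.61) and A_30_P01028276 near Irf1 (-1.20).

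The responses themselves show which way these probes moved. A_30_P01025035 rose by 2.74 in WT and 0.64 in KO, while 3 of the other 4 members of its name were called lower in each genotype. At A_30_P01032821 the estimates were 0.59 in WT and -1.85 in KO, and all 5 members of that name gave a negative difference in response, 3 of them called.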

How the results depend on the processing

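No probe named by rule changed direction under any alternative run for it. Other probes and regions in the text were not run under the alternatives, and splits of higher against lower calls did turn, as given with them. Of the probes named for LPS in WT, 26 of 27 were called under every alternative run for them, and 26 of 29 for LPS in KO. For genotype it was 2 of 23 untreated and 7 of 27 with LPS, and for the difference in response 0 of 17. Of these 7, A_30_P01021072 had a value on only 1 KO array with LPS, so leaving that array out gave no estimate for it. Like A_30_P01027483 among the probes named untreated, it was a member through 1 group alone. Counts of called members that moved by more than 1.5 times follow, with the range over leaving out each array whether or not it moved so far, and the cause was not tested except that fewer arrays or probes enter some fits. For KO against WT untreated (84), they were 336 with normexp, 235 with the deposited values, 15 with no filter on dim probes, 182 with probes detected on all 8 arrays, 25 with the 4 arrays compared, 19 with the replicate block, 8 with the slide column block and 36 with crossed replicate numbers, and 8 to 125 when leaving out an array. For KO against WT with LPS (842), they were 425 with the deposited values, 328 with no filter, 430 with 1 probe per name, 56 with the 4 arrays compared, 466 with the replicate block and 91 with the slide column block, and 181 to 800 when leaving out an array. For LPS in WT (4612), they were 1384 with the deposited values and 1947 with 1 probe per name, and 3104 to 4529 when leaving out an array. For LPS in KO (3253), they were 1314 and 1419, and 2042 to 3569. For the difference in response (111), they were 50 with median centring, 256 with normexp, 48 with the deposited values, 222 with probes on all 8 arrays, 66 with 1 probe per name, 0 with no filter (1327 at an unadjusted p under 0.05, limma), 0 with the replicate block (1473) and 0 with the slide column block (1328), and 0 to 194 when leaving out an array. The replicate block left 4331 calls for LPS in WT and 2944 in KO, and the crossed pairing, chosen after seeing the data, 769 for KO against WT with LPS. Dim probes, with signals near those just outside the detection rule, limit the folds to lower bounds.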
